A study of Mus musculus with 25 samples.

Results

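Ribosomal protein pseudogenes are copies of the genes for the proteins of the ribosome, and the mouse genome holds many of them. They are described here in the dorsal root ganglia of lumbar levels L3 to L5, whose sensory neurons serve the hind limb. Genes were taken whose symbol begins with Rpl or Rps and ends in -ps with or without a number. Rpl and Rps are the rodent prefixes for proteins of the large and the small ribosomal subunit. The symbol was the annotated one, or the one updated by Entrez identifier, which added 5 of the genes kept below. Of 206 genes of this form with a probe set naming no other gene, 193 had a mean above 4.5 on the log2 intensity scale over all 25 arrays and were kept, among 20461 genes tested in all. Of the kept genes, 128 carried an Rpl and 65 an Rps symbol, and they belonged to 49 families, each family being the pseudogenes named after 1 ribosomal protein gene (the parent).

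All mice were male C57BL/6. At 10 weeks of age the right knee of operated mice had either destabilization of the medial meniscus (DMM), which leads to osteoarthritis of that joint, or a sham operation, and naive mice had no operation. Ganglia were collected 4, 8 or 16 weeks later, when the animals of all 3 kinds were 14, 18 or 26 weeks old, so time after surgery and age cannot be told apart within a group. Each of the 9 groups held 3 arrays except sham at 8 weeks, which held 1, the other samples of that group having failed the submitters' quality control. The labels do not say which knee's side the ganglia came from or whether an array holds 1 animal or a pool, so p-values measure the spread between these samples.

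Most ribosomal protein pseudogenes are processed pseudogenes: an mRNA of the parent was copied back into DNA and inserted elsewhere, without introns and usually without the parent's promoter. Most are held to be silent, and some are transcribed from a neighbouring promoter or as part of the gene they landed in. Because the copies resemble the parent's exons, a microarray probe placed on one may also bind RNA of the parent or of another copy. A value given below under a pseudogene's name is therefore the intensity of its probe set, and whose RNA it holds was not tested.

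The RefSeq table (GRCm38.p6) held 192 of the 193 genes. It listed 184 as pseudogenes, 6 as transcribed pseudogenes (Rpl14-ps1, Rpl17-ps10, Rps15a-ps4, Rps15a-ps6, Rps19-ps3 and Rps6-ps4) and 2 as protein-coding genes (Rpl31-ps12 and Rpl34-ps1). Of these 192, 60 lay wholly inside another annotated gene, 45 of them inside a protein-coding gene. Strand was not taken into account, so a copy on the strand opposite to the surrounding gene counts as inside it.

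Rpl31-ps12 was the 1 kept pseudogene for which the promoter tables used here gave a transcription start. The 250 bases before that start (its upstream bases) are printed with those of its parent Rpl31, which codes for a large-subunit protein. Both run 5′ to 3′ on the gene's own strand, and how the copy arose was not tested. Capitals mark the letters searched for as motifs, on both strands: GGGCGG (the SP1 box, CCGCCC on the other strand), CCGGAAG (the ETS box, CTTCCGG) and TATAAA (the TATA box, TTTATA). The first is chr16:16820197-16820446, minus strand, and the second chr1:39367601-39367850, plus strand, in GRCm38.p6 of RefSeq.
Rpl31-ps12: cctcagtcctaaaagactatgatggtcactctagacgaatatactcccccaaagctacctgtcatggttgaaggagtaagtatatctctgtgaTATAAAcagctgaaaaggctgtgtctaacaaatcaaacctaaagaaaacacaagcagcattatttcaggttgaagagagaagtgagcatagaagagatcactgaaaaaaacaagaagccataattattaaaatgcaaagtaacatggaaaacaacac
Rpl31: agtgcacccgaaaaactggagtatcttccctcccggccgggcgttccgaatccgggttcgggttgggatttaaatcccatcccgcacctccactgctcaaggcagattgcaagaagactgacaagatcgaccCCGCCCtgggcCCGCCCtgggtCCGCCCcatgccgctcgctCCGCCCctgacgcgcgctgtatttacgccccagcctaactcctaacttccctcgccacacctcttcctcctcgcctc

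These upstream bases were 36.8% G or C in Rpl31-ps12 and 62.8% in Rpl31. The SP1 box stood 4 times in the parent's stretch and 0 times in the pseudogene's, which held 1 TATA box. The longest ungapped match between the 2 windows of 250 bases before and 50 after the start (1 for a match, 2 off for a mismatch) lay after the start in both. It covered 23 bases of which 22 agree, bases 17 to 39 after the start in Rpl31-ps12 and 28 to 50 in Rpl31. Base 50 is the last of the Rpl31 window, so a match running on past it could not be seen.
Rpl31-ps12: GCGACTTTCCTTCCCACAAACCC
Rpl31: GCGACTTTCCCTCCCACAAACCC
Among the 39 parents with a window in the same tables, 26 (66.7%) held the SP1 box in their 300 bases, against 35.9% of all 27025 promoters. The ETS box stood in 13 parents (33.3%), against 9.12% of all promoters, and the TATA box in 4 (10.3%), against 14.2%. A match of letters is a description and shows no binding.

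Mean brightness of the 193 pseudogenes ran from 4.53 log2 units (Rpl31-ps25) to 17.37 (Rps23-ps), with a median of 10.90, against 7.27 over all genes tested. Brightness depends on the probes as well as on RNA, so it gives no order of amounts between genes. Beside Rps23-ps the brightest were Rpl10-ps1 (17.10), Rpl10-ps6 (17.09), Rpl21-ps8 (16.85), Rpl18-ps1 (16.73) and Rpl28-ps3 (16.60), and 114 pseudogenes had a mean above 10. At the limit of 4.5, Rpl31-ps25 (4.53), Rps13-ps6 (4.58) and Rpl23a-ps13 (4.59) lay just inside and Rpl28-ps4 (4.49), Rpl35-ps1 (4.45) and Rpl48-ps1 (4.38) just outside. The array's 23 background probe sets had means of 2.67 to 6.33, and 167 of the pseudogenes were above the highest of them.

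Several names stood on the same signal. Rpl35a-ps3, Rpl35a-ps4 and Rpl35a-ps6 had identical values on every array, as did Rps12-ps6, Rps12-ps17 and Rps12-ps18, and Rps19-ps1 with Rps19-ps2, so the 193 names carried 188 distinct profiles. The largest families were Rpl31 with 22 pseudogenes, Rps12 with 15, Rpl21 with 13 and Rps19 with 11, and 18 families had at least 4. Members of a family moved together from array to array: after each group's mean was taken off, the median Pearson correlation over 24 arrays was 0.57 for 679 pairs of the same family and 0.17 for 17842 pairs of different families. Pairs share the arrays, and pairs of a family also share sequence. The spread between arrays of a group was a median SD of 0.134 log2 units for the pseudogenes and 0.121 for all genes tested.

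Arrays of a group correlated at 0.993 to 0.998. The set of pseudogenes is first given by its shift on each array. The median shift of an array (the median over the 193 genes of the value minus the gene's own mean over all arrays) was -0.00, 0.06 and 0.02 in DMM mice at 4 weeks, -0.07, -0.11 and -0.16 in sham mice and 0.22, 0.10 and 0.12 in naive mice. At 8 weeks it was -0.07, -0.16 and -0.16 in DMM mice, -0.05 on the lone sham array and 0.14, 0.13 and -0.09 in naive mice. At 16 weeks it was 0.01, 0.08 and -0.00 in DMM mice, 0.11, 0.09 and 0.15 in sham mice and -0.14, -0.07 and -0.07 in naive mice. DMM, sham and naive arrays did not overlap in this shift at 4 weeks or at 16 weeks, although the highest DMM array (0.08) lay close to the lowest sham array (0.09) at 16 weeks. The third naive array at 8 weeks stood apart from the other naive arrays of its age and beside the DMM arrays. The 34 ribosomal protein genes with a probe set of their own shifted in the same order at 4 and 16 weeks, with group means at 4 weeks of 0.04 for DMM, -0.07 for sham and 0.14 for naive mice, and at 16 weeks of 0.02 for DMM, 0.08 for sham and -0.08 for naive mice. Genes of mean above 10, whatever their function, shifted in part as well, with a group mean of 0.07 in naive mice at 4 weeks and -0.04 in naive mice at 16 weeks.

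**Figure D1:**
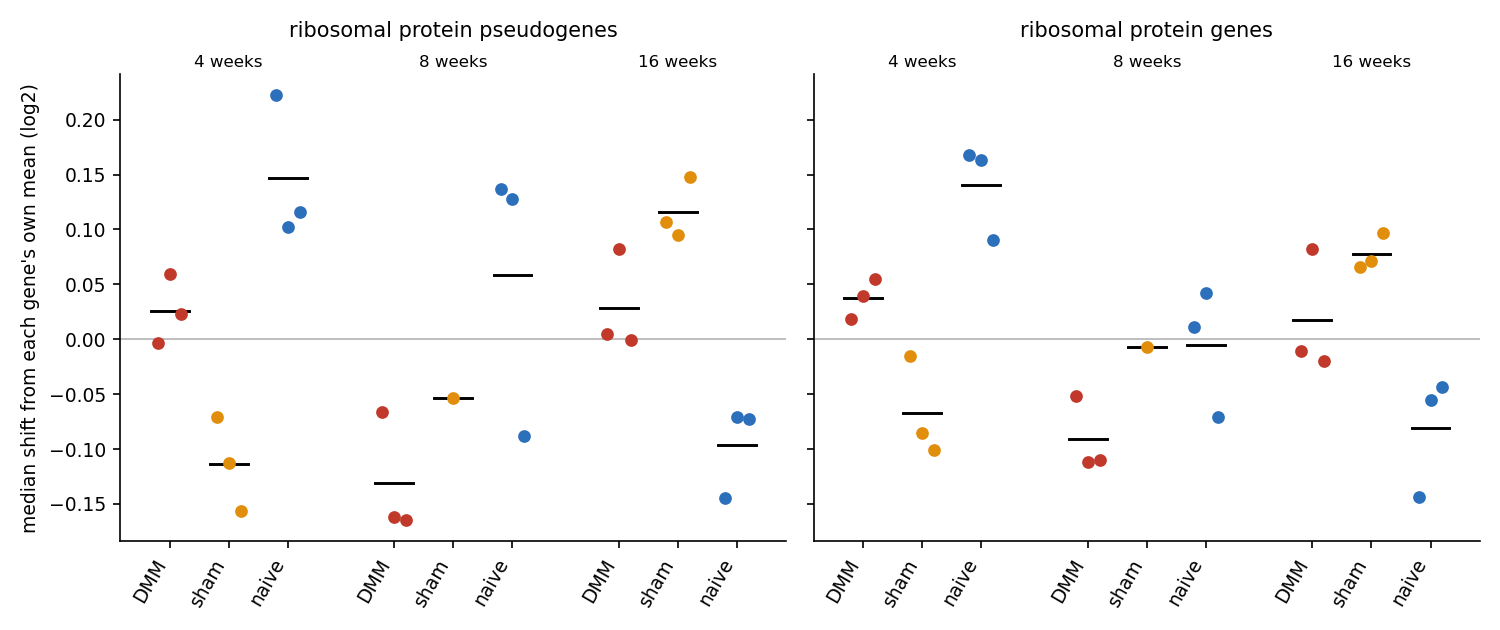
Median shift of the 193 pseudogenes (left) and of the 34 ribosomal protein genes with a probe set of their own (right), in log2 units from each gene's mean over all 25 arrays, with 1 point per array and a line at the group mean, for DMM, sham and naive mice at 4, 8 and 16 weeks after surgery or at the matching age. Naive arrays lie highest at 4 weeks (0.10 to 0.22) and lowest at 16 weeks (-0.14 to -0.07) in the left panel.

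The first question is whether these values differed between DMM and naive mice, and 8 weeks was the time with calls. In DMM against naive mice at 8 weeks, 2 of the 193 pseudogenes passed the threshold of an adjusted p of 0.05 (limma, Benjamini-Hochberg over all genes tested), both lower, against 0.0391% of all genes tested called lower. They were Rpl35a-ps5 and Rpl35a-ps2, copies of the gene for a large-subunit protein. The direction was wider than the calls: 177 of 193 differences were negative, where 50.4% of all genes tested were. The median was -0.20, against -0.00 over all genes tested. Without overlap between the groups, 54 pseudogenes were lower in DMM mice and 1 was higher, where 5.37% of all genes tested were lower without overlap. Without the third naive array 15 pseudogenes passed, without the first DMM array 8, and without any other single array of these groups 0.

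Rpl35a-ps5 had 9.48, 9.02 and 9.40 log2 units in DMM mice at 8 weeks, against 9.99, 9.93 and 9.85 in naive mice. Rpl35a-ps2 had 10.21, 9.74 and 9.96 in DMM mice, against 10.66, 10.49 and 10.47 in naive mice. Neither pair of groups overlapped, and the second DMM array was the lowest in both genes. Rpl35a-ps5 fell by 0.62 (SE 0.11, adjusted p = 0.0408) and Rpl35a-ps2 by 0.57 (SE 0.10, adjusted p = 0.0429), which are folds of 0.651 and 0.674. The lone sham array had 9.89 for Rpl35a-ps5 and 10.41 for Rpl35a-ps2, within or just under the range of the naive arrays. All 6 Rpl35a pseudogenes had negative differences at this time, from -0.62 to -0.26, and the parent Rpl35a could not be set beside them, since its probe set also names other genes. At 16 weeks the sign was the other way: the 6 differences of DMM against naive mice ran from 0.37 to 0.43, with a smallest adjusted p of 0.114 for the shared profile of Rpl35a-ps3, -ps4 and -ps6. These comparisons at different times share no arrays.

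The largest differences at 8 weeks did not pass. Rps27a-ps2 and Rps27a-ps3 are copies of the gene for ubiquitin fused to a small-subunit protein. Rps27a-ps2 had 13.16, 12.82 and 12.75 in DMM mice, 14.03 on the sham array and 13.83, 13.98 and 13.49 in naive mice. The DMM arrays lay below all others of that time, yet the difference to naive mice of -0.86 (SE 0.17) had an adjusted p of 0.0645. For Rps27a-ps3 it was -0.82 (SE 0.21, adjusted p = 0.177), and against the lone sham array, assumed to vary like the other groups, it was -1.48 (SE 0.30, adjusted p = 0.178). Both genes were also variable elsewhere: in naive mice at 4 weeks Rps27a-ps2 had 13.05, 13.64 and 13.60. Rps27a-ps2 lies inside Lca5 and Rps27a-ps3 inside Rimklb, and the probe sets of those genes gave 6.61, 6.72 and 6.68 for Lca5 and 6.64, 6.45 and 6.94 for Rimklb in DMM mice at 8 weeks, against 6.65, 6.71 and 6.78 and 6.99, 6.77 and 6.87 in naive mice. In both genes these values overlapped. On the positive side, Rps15a-ps8 (0.40, SE 0.14, adjusted p = 0.411), Rps15a-ps5 (0.28), Rps15a-ps1 (0.20) and Rpl10a-ps1 (0.18) had the largest differences, and none of the 4 passed.

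**Figure D2:**
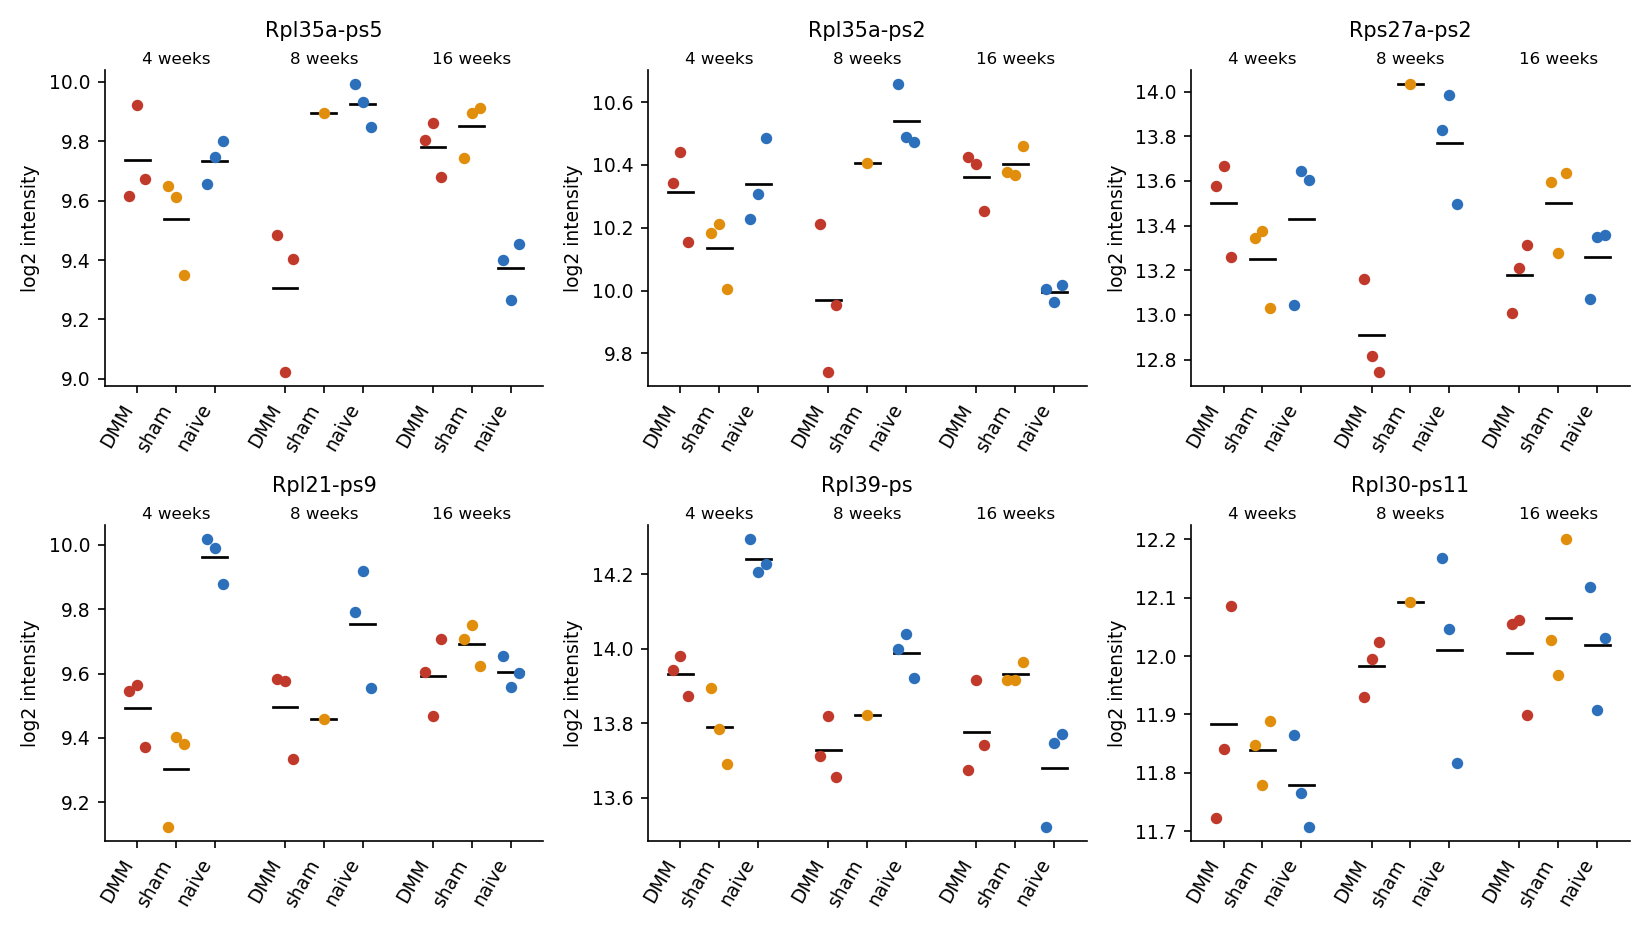
Log2 intensity on each array of 6 pseudogenes, with a line at the group mean, for DMM, sham and naive mice at 4, 8 and 16 weeks; each panel has its own axis, which does not start at 0. The DMM arrays at 8 weeks lie below the naive arrays for Rpl35a-ps5, Rpl35a-ps2 and Rps27a-ps2, naive arrays at 4 weeks lie above the sham arrays for Rpl21-ps9 and Rpl39-ps, and the groups of Rpl30-ps11 overlap at 8 and 16 weeks.

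At 4 and 16 weeks no pseudogene passed in DMM against naive mice, where 0.00977% and 0.0147% of all genes tested did, and at an unadjusted p under 0.05 in limma there were 29 (15.0%, against 8.80% of all genes tested) and 36 (18.7%, against 8.76%). The median difference was -0.11 at 4 weeks, against -0.03 over all genes, and 0.12 at 16 weeks, against 0.01, and after quantile normalization it was -0.06 and 0.07. At 4 weeks Rpl21-ps9 (-0.47, SE 0.10, adjusted p = 0.18), Rpl9-ps3 (-0.46), Rps13-ps5 (-0.39) and Rps2-ps4 (-0.36) were the most negative and Rps27a-ps3 (0.26), Rpl13-ps1 (0.25), Rps15a-ps3 (0.20) and Rpl30-ps1 (0.19) the most positive. At 16 weeks the most positive after the Rpl35a genes named above was Rpl35a-ps5 at 0.41 (SE 0.11, adjusted p = 0.33), and the most negative were Rpl23a-ps12 (-0.21), Rps15a-ps5 (-0.18), Rpl10a-ps2 (-0.18) and Rps15a-ps8 (-0.15). Averaged over the 3 times, none passed (0.044% of all genes tested did; at an unadjusted p under 0.05 there were 30 pseudogenes, 15.5%, against 7.30% of all genes), the median was -0.06, and differences ran from -0.29 for Rps27a-ps2 to 0.12 for Rps15a-ps8. In that average Rps13-ps5 (-0.26, SE 0.06) and Rpl21-ps9 (-0.25, SE 0.06) shared an adjusted p of 0.162, the smallest of the set.

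The change of the DMM effect over time was also tested directly. Between 8 and 4 weeks none of the 193 changed past the threshold (0% of all genes tested did), and the 13 at an unadjusted p under 0.05 in limma were 6.74% of them, against 8.77% of all genes tested. The median there was -0.09, between -0.17 without the third and -0.05 without the second naive array of 8 weeks. The largest values were -1.08 for Rps27a-ps3, -0.93 for Rps27a-ps2, -0.62 for Rpl35a-ps5 and -0.54 for Rpl35a-ps2, all with an adjusted p of 0.436. Rps15a-ps5 had the largest positive value, 0.56 (SE 0.24, adjusted p = 0.536), ahead of Rpl9-ps3 (0.39), Rpl10a-ps1 (0.34) and Rplp0-ps1 (0.34). Between 16 and 4 weeks none passed either (0.00489% of all genes tested did), with 61 at an unadjusted p under 0.05, which is 31.6%, against 10.5% of all genes. There 175 of 193 values were positive, where 59.1% of all genes tested were. The median was 0.24, against 0.04 over all genes, and 0.15 after quantile normalization or cyclic loess. Rplp0-ps1, a copy of the gene for a protein of the ribosomal stalk, had the largest value, 0.68 (SE 0.19, adjusted p = 0.288), ahead of Rpl31-ps22 (0.58), Rpl9-ps3 (0.57) and Rpl38-ps1 (0.56). At the other end stood Rps27a-ps3 (-0.41, SE 0.30, adjusted p = 0.649), Rps15a-ps8 (-0.27), Rps15a-ps6 (-0.20) and Rpl23a-ps12 (-0.19).

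Against sham mice, which separates joint destabilization from the operation, no pseudogene passed at any time. The share of all genes tested that did was 0% at 4 weeks, 0% at 8 weeks, where the sham group is 1 array, and 0.00489% at 16 weeks. At an unadjusted p under 0.05 in limma there were 42 pseudogenes at 4 weeks (21.8%, against 4.69% of all genes tested), 34 at 8 weeks (17.6%, against 8.39%) and 12 at 16 weeks (6.22%, against 6.44%). The median difference was 0.13 at 4 weeks, with 174 of 193 positive, -0.09 at 8 weeks, and -0.09 at 16 weeks, with 169 of 193 negative. Over all genes tested the medians were 0.01, 0.00 and -0.01, with 53.9% positive at 4 weeks and 55.2% negative at 16 weeks. The pseudogenes' median was -0.06 at 8 weeks without the third DMM array and -0.05 at 16 weeks after quantile normalization. At 4 weeks the shared profile of Rps12-ps6, -ps17 and -ps18 had the most positive value, 0.39 (SE 0.11, adjusted p = 0.98), followed by Rps12-ps19 at 0.38. Rpl13-ps5 (-0.16), Rpl30-ps5 (-0.16), Rplp0-ps1 (-0.15) and Rps15a-ps8 (-0.10) were the most negative. At 8 weeks Rps27a-ps2 (-1.12), Rpl38-ps1 (-0.77) and Rpl38-ps2 (-0.76) followed Rps27a-ps3, given above, and Rpl10a-ps1 (0.67, SE 0.19, adjusted p = 0.217), Rpl7l1-ps1 (0.44), Rpl28-ps1 (0.39) and Rpl10a-ps2 (0.29) were the most positive. At 16 weeks values ran from -0.33 for Rps27a-ps3, -0.32 for Rps27a-ps2, -0.31 for Rpl31-ps25 and -0.29 for Rpl27a-ps2 to 0.10 for Rps12-ps7, 0.10 for Rps10-ps4, 0.12 for Rpl3-ps1 and 0.15 for Rpl9-ps3.

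The operation itself was compared in sham against naive mice, which uses the same naive arrays as the comparisons of DMM above. At 4 weeks 9 pseudogenes fell and 0 rose, against 0.259% of all genes tested that fell. They were Rpl21-ps4, Rpl21-ps6, Rpl21-ps9, Rpl21-ps15, Rpl9-ps7, Rpl19-ps4, Rpl31-ps22, Rpl34-ps2 and Rpl39-ps, all named after large-subunit proteins. Of all 193 differences 182 were negative, where 63.9% of all genes tested were, with a median of -0.25 against -0.05 over all genes. Without overlap 116 pseudogenes were lower in sham mice, where 16.7% of all genes tested were. The calls were close to the threshold (adjusted p of 0.0187 to 0.0486), and the count was 2 without the first sham array, 1 without the third sham array and 0 without the second sham array or any 1 of the naive arrays.

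Rpl21-ps9 had 9.12, 9.40 and 9.38 in sham mice at 4 weeks, against 10.02, 9.99 and 9.88 in naive mice, a fall of 0.66 (SE 0.10, adjusted p = 0.0187). Rpl31-ps22 had 11.56, 11.63 and 11.39 in sham mice, against 12.19, 11.96 and 11.97 in naive mice, a fall of 0.51 (SE 0.10, adjusted p = 0.0415). Rpl39-ps had 13.89, 13.79 and 13.69 in sham mice, against 14.29, 14.20 and 14.23 in naive mice, a fall of 0.45 (SE 0.07, adjusted p = 0.0295). In each of these genes the highest sham array lay under the lowest naive array, and the DMM arrays of 4 weeks, such as 13.94, 13.98 and 13.87 for Rpl39-ps, lay under the naive arrays too. The other 6 fell by 0.29 (Rpl21-ps15) to 0.43 (Rpl34-ps2), folds of 0.816 and 0.745. The nearest misses by size were Rpl9-ps1 (-0.56, SE 0.18, adjusted p = 0.131) and Rpl31-ps12 (-0.47, SE 0.11, adjusted p = 0.0665).

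At 16 weeks none passed in sham against naive mice (0.00489% of all genes tested did). At an unadjusted p under 0.05 in limma there were 91, which is 47.2%, against 10.7% of all genes. The sign was the other way, with 186 of 193 differences positive, where 57.2% of all genes tested were. The median was 0.21, against 0.02 over all genes, and it was 0.13 after quantile normalization. Sham and naive arrays did not overlap for 106 pseudogenes, higher in sham mice, where 12.1% of all genes tested were. Rpl31-ps25 had the largest difference, 0.50 (SE 0.10, adjusted p = 0.166), from 4.69, 4.81 and 4.89 in sham mice, against 4.15, 4.37 and 4.35 in naive mice, all of them within the range of the background probe sets. Rpl35a-ps5 (0.48), Rpl35a-ps2 (0.41) and Rpl34-ps2 (0.40) came next. Counted over both times, which share no arrays, 73 pseudogenes were lower without overlap at 4 weeks and higher without overlap at 16 weeks, where 3.96% of all genes tested were.

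**Figure D3:**
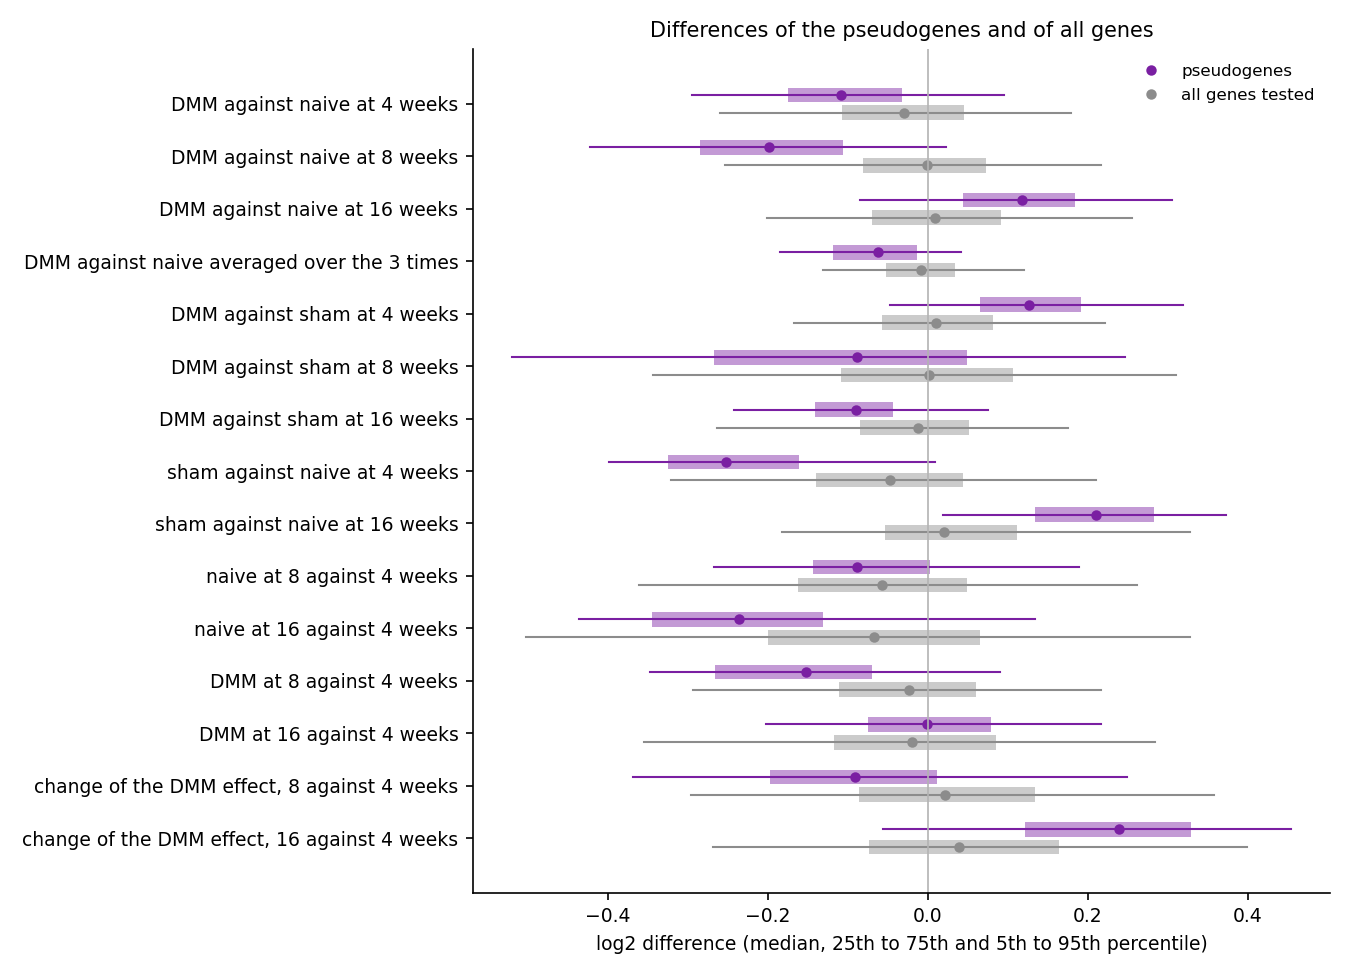
Log2 differences of the 193 pseudogenes (purple) and of all 20461 genes tested (grey) in the 15 comparisons: the point is the median, the box the range between the quartiles and the line a wider range of percentiles, both named on the axis. The pseudogenes' median lies at -0.25 for sham against naive mice at 4 weeks and at 0.21 at 16 weeks, while that of all genes stays between -0.07 and 0.04 in every comparison.

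Time without surgery, and so age, was compared in naive mice, the comparison with most calls. From the age of 14 to 26 weeks (16 against 4 weeks), 68 of the 193 pseudogenes fell (35.2%) and 0 rose. Among all genes tested 2578 fell (12.6%) and 1230 rose. Of the 4598 genes of mean above 10, 24.3% fell. Of the 114 pseudogenes of that brightness 54 fell (47.4%), and of the 79 dimmer ones 14 fell (17.7%). The 68 names stood for 64 distinct profiles, 46 were of the large and 22 of the small subunit, and their falls ran from 0.22 (Rpl29-ps2) to 0.61 (Rpl9-ps1). The median over all 193 was -0.24, against -0.07 over all genes and -0.12 over genes of mean above 10. Of the 193, 97 were lower at 16 weeks without overlap, where 26.1% of all genes tested were. The split depends on scaling between arrays: after quantile normalization 26 were lower and 7 higher with a median of -0.13, and after cyclic loess 28 were lower and 4 higher with a median of -0.15. Without 1 array at a time the count ran from 31, without the first naive array of 4 weeks, to 58. It was 34 without the first naive array of 16 weeks and 42 without the third naive array of 4 weeks. Sham mice of these ages had the opposite order: their median shift was 0.12 ± 0.03 at 16 weeks, against -0.11 ± 0.04 at 4 weeks, where naive mice had -0.10 ± 0.04 at 16 weeks, against 0.15 ± 0.07 at 4 weeks (SD, n = 3 each). For Rpl39-ps sham mice had 13.93 ± 0.03 at 16 weeks, against 13.79 ± 0.10 at 4 weeks (SD, n = 3 each). The change with time within sham mice was not tested.

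Rpl39-ps had 13.52, 13.75 and 13.77 in naive mice at 16 weeks, against 14.29, 14.20 and 14.23 at 4 weeks, a fall of 0.56 (SE 0.07, adjusted p = 0.000241), the smallest adjusted p of the set. Rpsa-ps4, a copy of the gene for the small-subunit protein that is also known as the laminin receptor, had 8.29, 8.26 and 8.06 at 16 weeks, against 8.57, 8.63 and 8.48 at 4 weeks, a fall of 0.36 (SE 0.07, adjusted p = 0.0017). Rps25-ps1 had 9.60, 9.64 and 9.87 at 16 weeks, against 10.14, 10.20 and 10.31 at 4 weeks, a fall of 0.51 (SE 0.11, adjusted p = 0.00447). The ages did not overlap in these 3 genes, and together with Rpl18-ps2 they were also the 4 that fell in naive mice at 8 against 4 weeks. These 4 were 2.07% of the pseudogenes, a smaller share than the 4.17% of all genes tested and the 7.72% of genes of mean above 10 that fell. At 8 weeks their falls were 0.25 for Rpl39-ps (adjusted p = 0.0482), 0.29 for Rpsa-ps4 (adjusted p = 0.0183), 0.38 for Rps25-ps1 (adjusted p = 0.0471) and 0.28 for Rpl18-ps2 (adjusted p = 0.0332), and both comparisons use the naive arrays of 4 weeks. The median of all 193 at 8 against 4 weeks was -0.09, beside -0.06 over all genes and -0.09 over genes of mean above 10. The pseudogenes' median was -0.05 without the first naive array of 4 weeks, 0.01 without the third naive array of 8 weeks and -0.00 after quantile normalization or cyclic loess. Leaving out any 1 array of these groups left 0 or 1 pseudogene past the threshold.

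The number of pseudogenes that fell in naive mice at 16 against 4 weeks is given by family. In 25 families at least 1 pseudogene fell and in 24 none did. Beside these counts, 12.6% of all genes tested fell, and 24.3% of those of mean above 10. All 6 of Rpl35a fell (median difference -0.38), as did all 4 of Rpl19 (-0.36), 5 of 6 of Rpsa (-0.39), 4 of 5 of Rpl9 (-0.34) and 11 of 15 of Rps12 (-0.36). Rpl21 had 7 of 13 (-0.24), Rpl31 8 of 22 (-0.27), Rpl36 2 of 7 (-0.28), Rps15a 1 of 7 (-0.24) and Rpl23a 1 of 5 (-0.25). The counts in Rpl36, Rps15a and Rpl23a are near the shares of all genes. The call in Rpl23a is Rpl23a-ps13, with 4.45 ± 0.03 at 16 weeks, against 4.69 ± 0.08 at 4 weeks (SD, n = 3 each), which lost its call in 12 of 17 alternative settings. It is 1 of 3 called pseudogenes, with Rpl31-ps25 and Rpl36-ps4, whose mean lies within the range of the background probe sets. None fell among the 11 of Rps19 (-0.16), the 8 of Rpl7a (-0.19), the 5 of Rpl17 (-0.13) and the 4 each of Rpl10 (-0.17), Rps6 (-0.15), Rps13 (-0.10) and Rps10 (-0.05). Among the smaller families, Rpl22-ps1 (-0.50, adjusted p = 0.00121), Rpl32-ps (-0.48, adjusted p = 0.00741), Rpl15-ps1 (-0.44), Rplp0-ps1 (-0.43) and both pseudogenes each of Rps24, Rps18 and Rpl27a fell. So did 2 of the 3 of Rpl29 and 1 each of Rpl13, Rpl18, Rpl27, Rpl34, Rpl36a, Rpl39 and Rps25.

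The 8 pseudogenes of Rpl30, a large-subunit protein, stood on the other side in naive mice. All 8 had positive differences at 16 against 4 weeks, from 0.13 (Rpl30-ps9) to 0.25 (Rpl30-ps2), and made up 8 of the 18 positive values in the set. None passed: Rpl30-ps11 had 12.12, 11.91 and 12.03 at 16 weeks, against 11.86, 11.77 and 11.71 at 4 weeks, without overlap, a difference of 0.24 (SE 0.10, adjusted p = 0.0859). Outside this family the largest positive value was that of Rps15a-ps6 (0.36, SE 0.17, adjusted p = 0.154).

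**Figure D4:**
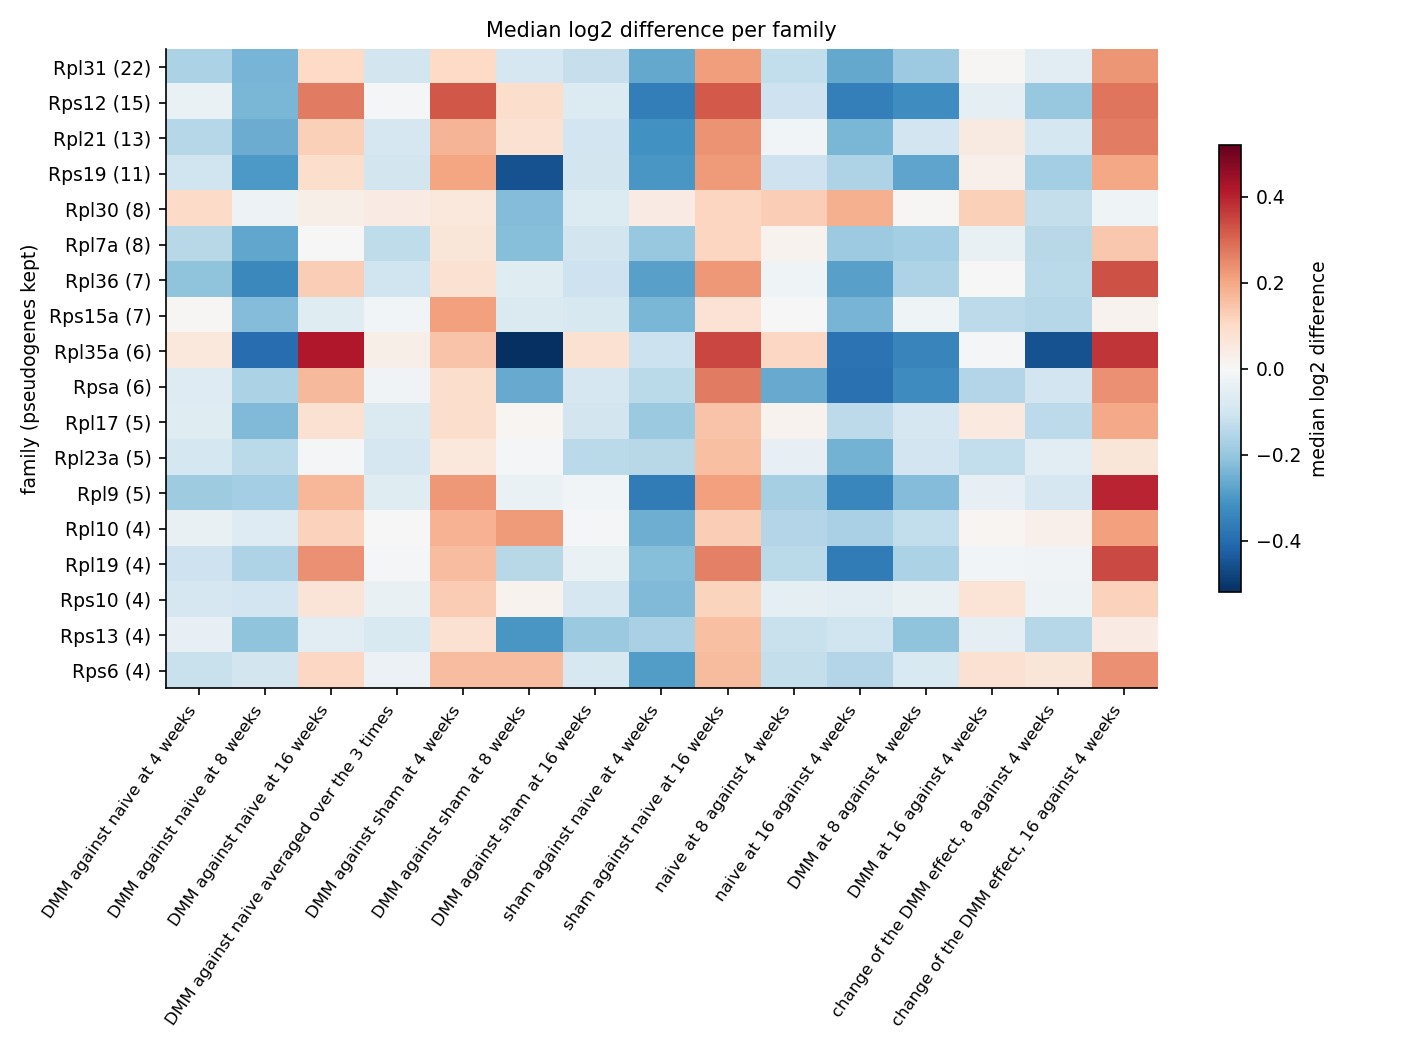
Median log2 difference of each family with at least 4 pseudogenes (rows, with their number) in the 15 comparisons (columns), in red where positive and blue where negative. In naive mice at 16 against 4 weeks all 18 families but Rpl30 are negative, and Rpl35a (-0.38) and Rpsa (-0.39) are the most negative.

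The parent genes were set beside their copies where a probe set named the parent alone, which held for 17 parents of 72 pseudogenes. In naive mice at 16 against 4 weeks 9 of the 17 parents fell and 0 rose, with a median of -0.22. The 72 copies had a median of -0.22 with 25 falls, where 12.6% of all genes tested fell. Rpl39, which codes for a small protein lining the ribosome's exit tunnel, had 10.15, 10.30 and 10.31 at 16 weeks, against 10.80, 10.95 and 10.73 at 4 weeks, a fall of 0.57 (SE 0.08, adjusted p = 0.000243) beside that of 0.56 in Rpl39-ps. Rpsa fell by 0.40 (SE 0.07, adjusted p = 0.00149) beside 5 of its 6 copies, Rpl22 by 0.35 beside 0.50 in Rpl22-ps1, and Rplp0 by 0.35 beside 0.43 in Rplp0-ps1. Rpl19, Rpl27, Rpl12, Rps18 and Rps24 also fell, by 0.22 to 0.39, and both copies of Rpl12 missed the threshold at -0.06 and -0.08. None of the 8 copies of Rpl7a passed, and neither did Rpl7a itself (0.01, SE 0.08, adjusted p = 0.93).

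In naive mice at 16 against 4 weeks Rpl31 had the opposite sign to its copies. The parent had 9.66, 9.82 and 9.97 at 16 weeks, against 9.59, 9.62 and 9.30 at 4 weeks, a difference of 0.32 (SE 0.12, adjusted p = 0.0704), without overlap. Its 22 copies ran from -0.44 to -0.02, and Rpl31-ps12, whose upstream bases are printed above, had 10.69, 10.73 and 11.06 at 16 weeks, against 11.23, 11.32 and 11.03 at 4 weeks, a fall of 0.37 (SE 0.11, adjusted p = 0.0286). In sham against naive mice at 4 weeks Rpl31 was again positive (0.26, adjusted p = 0.282) and all 22 copies negative, from -0.51 to -0.06. Over all 72 pairs of copy and parent the sign agreed in 39 in naive mice at 16 against 4 weeks, the fewest of the 15 comparisons. The 22 pairs of the Rpl31 family were all among those of opposite sign there. Most pairs agreed in DMM against naive mice at 8 weeks, 68 of 72, where Rpl31 had -0.18 and its copies a median of -0.24. A difference between a copy and its parent was not tested.

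**Figure D5:**
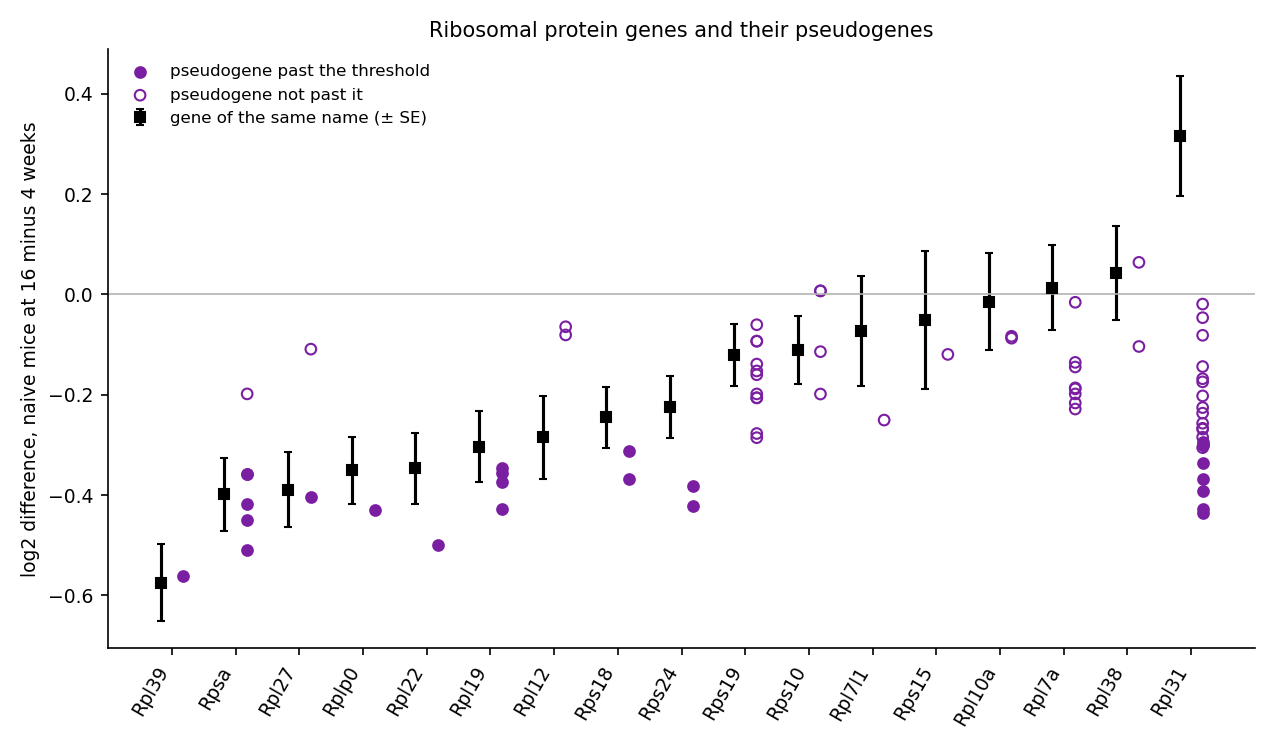
Log2 difference in naive mice at 16 minus 4 weeks for the 17 parent genes with a probe set of their own (black squares, ± SE of the limma fit) and for their 72 pseudogenes (purple circles, filled where past the threshold). Rpl39 and Rpl39-ps lie side by side at -0.57 and -0.56, while Rpl31 stands at 0.32 above 22 copies that are all negative.

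In the remaining comparisons of the parents 0 passed in any of DMM against naive, DMM against sham or sham against naive mice. In naive mice at 8 against 4 weeks 4 fell, where 4.17% of all genes tested did. Their medians in sham against naive mice were -0.18 at 4 weeks and 0.13 at 16 weeks, where the 72 copies had -0.24 and 0.22. The wider lists of cytosolic ribosomal proteins hold all of these parents except Rpl7l1, so they are no separate evidence. Of the large subunit, 10 of 18 genes tested fell in naive mice at 16 against 4 weeks (median -0.28), where 12.6% of all genes tested fell. Of the small subunit 10 of 16 fell (median -0.23), with 0 higher in either. Of the list of ribosome assembly and rRNA synthesis, 8 of 26 fell (median -0.13), among them Nop58 and Nop10, of small nucleolar ribonucleoproteins. Of 4 ribosomal protein paralogs 1 fell (Rps27l), and of 11 genes of nuclear decay and surveillance of RNA 1 rose (Smg6) and 1 fell (Mtrex). The 1 fall among 11 is near the share of all genes, and 1 of 4 rests on few genes. Of 12 translation factors whose mRNAs are of the same class as those of ribosomal proteins, 3 fell (Eef1b2, Eef1g and Tpt1, median -0.03).

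Time was also compared in DMM mice. At 8 against 4 weeks none passed, where 0.0195% of all genes tested did. At an unadjusted p under 0.05 in limma there were 66 pseudogenes, 34.2%, against 11.9% of all genes. Of the 193 differences 171 were negative, where 57.7% of all genes tested were, with a median of -0.15, against -0.02 over all genes. At 16 against 4 weeks none passed where 2.74% of all genes tested did, and the 12 at an unadjusted p under 0.05 were 6.22% of the pseudogenes, against 18.3% of all genes tested. The median was -0.00, with 96 positive and 97 negative differences, and 0.04 after quantile normalization. Rpl39-ps, which fell with age in naive mice, had 13.68, 13.91 and 13.74 in DMM mice at 16 weeks, against 13.94, 13.98 and 13.87 at 4 weeks. Rpl38-ps2 and Rpl38-ps1 had the largest positive values, 0.48 (SE 0.15, adjusted p = 0.0919) and 0.46 (SE 0.16, adjusted p = 0.13), and Rps27a-ps3 the most negative, -0.44 (SE 0.21, adjusted p = 0.269). Whether the change with time in DMM mice differs from that in naive mice is the change of the DMM effect given above.

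Of the pseudogenes inside a protein-coding gene, on either strand, 41 lay in 41 genes that were tested. In naive mice at 16 against 4 weeks those pseudogenes had a median of -0.17. The genes around them had a median of 0.03, with 1 lower and 8 higher. Among all genes tested in that comparison 2578 (12.6%) were lower and 1230 higher. In sham against naive mice at 4 weeks the medians were -0.21 for the pseudogenes and 0.04 for the genes around them, and in DMM against naive mice at 8 weeks -0.20 and -0.00, with 0 of the genes around them passing in either.

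Other cell types' markers moved in some of the same comparisons. Among all genes tested 12.6% fell in naive mice at 16 against 4 weeks and 0.259% in sham against naive mice at 4 weeks. In naive mice at 16 against 4 weeks 7 of 9 macrophage markers fell (median -0.68), with list means of 6.60 to 6.73 log2 units on the arrays of 16 weeks, against 7.24 to 7.61 at 4 weeks, and 1 of 6 fibroblast and meningeal markers fell (Ogn, median -0.49). In sham against naive mice at 4 weeks 4 of 9 macrophage markers fell (median -0.60), with list means of 6.66 to 6.94 in sham mice, against 7.24 to 7.61 in naive mice, and 0 of 6 fibroblast markers passed (median -0.49). The 14 sensory neuron markers tested had medians of 0.02 and 0.04 in these 2 comparisons, with 2 higher and 2 lower with age, and list means of 15.08 to 15.28 over all arrays. Values on this log2 scale do not reach 0, the lowest on any array being 2.23. In DMM against naive mice at 8 weeks the macrophage markers had a median of 0.22 and the 6 Schwann cell markers -0.33, with 0 passing in both lists, while Fabp7 of satellite glia was higher there and lower with age in naive mice, and Pmp2 of Schwann cells was lower with age in naive mice too. In sham against naive mice at 16 weeks all 9 macrophage (median 0.23), 6 fibroblast (0.35) and 6 Schwann cell markers (0.25) were positive. In DMM against naive mice at 16 weeks all 9 macrophage (0.51) and 6 fibroblast markers (0.42) were positive, and against sham mice at 4 weeks likewise (0.41 and 0.63). For the DMM effect at 16 minus that at 4 weeks all 9 macrophage (0.66), 6 fibroblast (0.35) and 6 Schwann cell markers (0.29) were positive, and none of the markers in these 4 comparisons of 3 lists passed. Of the 9 macrophage markers 3 fell in naive mice at 8 against 4 weeks (-0.46), where 4.17% of all genes tested fell. In DMM against sham mice macrophage markers and pseudogenes had opposite signs at 8 and 16 weeks. At 8 weeks, with 1 sham array, 8 of 9 macrophage markers were positive (median 0.28) and the pseudogenes' median was -0.09. At 16 weeks all 9 were positive (0.25) with 0 passing, and the pseudogenes' median was again -0.09.

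Of 16 genes of the circadian clock, Arntl was higher in DMM against naive mice at all 3 times, Dbp was lower at 4 and 8 weeks, and Per2 and Per3 were lower at 8 weeks. In naive mice Npas2, Per3 and Cry2 rose and Arntl fell at 16 against 4 weeks. The hour of collection is not given in the sources used here. In bulk tissue fewer cells of a type and less RNA per cell cannot be told apart, and the part of these markers and clock genes in the pseudogenes' values was not tested.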

How the data were processed

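RNA of 25 ganglion samples was hybridised to 1-colour arrays of 72685 probe sets. The values deposited by the authors range from 2.23 to 19.70 and were read as log2 intensity, already normalized, from the values themselves: array medians over genes lay between 4.94 and 5.03. How the authors summarised and normalized them is not given in the sources used here, nor is any signal over background, so the number of arrays limits the precision.

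Gene names came from the platform's annotation of the probe sets: 30604 name 1 gene, 2146 name several and were left out, and 39935 name none or are controls. Of the symbols, 827 were updated by Entrez identifier, which added 5 pseudogenes. The brightest probe set stood for a gene, and genes of mean above 4.5 were tested. One mean per group was fitted to all 25 arrays with limma 3.58.1 (R 4.3.3, 16 residual degrees of freedom), with Benjamini-Hochberg adjustment over 20461 genes and a threshold of 0.05, in 15 comparisons. The fit was tested on simulated data.

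The members and lists were chosen with earlier results of these data known. Pseudogenes past the threshold were named in comparisons of operated with naive mice and in naive mice at 8 against 4 weeks. In the later comparison of naive mice with those of 4 weeks, many that fell are unnamed and appear only in the counts by family. The rule also named the 6 brightest and 3 dimmest kept, the 3 just below the limit and the families of 4 or more. In comparisons with DMM mice it named the 4 largest differences of each sign. It also took in parents and up to 4 genes of each list. Beyond this rule, genes were named after their values were seen: those nearest the threshold or largest in sham against naive mice and in time within DMM mice, further genes of the 2 ribosomal protein lists, and host genes. Alternatives changed the filter, the scaling between arrays, the arrays fitted, the naming, and the array left out. Same-numbered arrays correlated above 0.1 in their deviations in 8 of 21 pairs (range -0.357 to 0.319), so the numbers were not taken as pairs.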

Additional observations from a re-analysis of the deposited data

Results flagged for a closer look

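Sham and DMM effects against naive mice had opposite signs at different times for the items below, with no overlap between operated and naive arrays at either time. The median shift of the 193 pseudogenes, operated minus naive, was -0.26 at 4 weeks and 0.21 at 16 weeks in sham mice, a change of 0.4724, and -0.12 and 0.12 in DMM mice, a change of 0.2455. The changes of sham mice, and those of DMM mice between 8 and 16 weeks, were not tested. Those of DMM mice between 4 and 16 weeks were tested gene by gene, and none passed.

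In sham mice the changes between 4 and 16 weeks were 0.8787 for Rpl31-ps22, 0.829 for Rpl34-ps2, 0.7029 for Rpl39-ps, 0.6866 for Rpl21-ps4, 0.6729 for Rpl35a-ps5, 0.6118 for Rpl35a-ps2, 0.5928 for Rpl19-ps4, 0.5626 for Rpl9-ps7, 0.556 for Rpl21-ps6 and 0.3743 for Rpl21-ps15. The genes examined were those past the threshold in a comparison of operated with naive mice.

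In DMM mice the changes between 4 and 16 weeks were 0.5753 for Rpl31-ps22 (limma adjusted p = 0.2415), 0.4162 for Rpl19-ps4 (adjusted p = 0.225) and 0.3554 for Rpl34-ps2. Between 8 and 16 weeks they were 1.0253 for Rpl35a-ps5 (-0.62 at 8 weeks and 0.41 at 16 weeks), 0.9353 for Rpl35a-ps2 (-0.57 and 0.37), 0.6016 for Rpl31-ps22 and 0.3831 for Rpl9-ps7.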

How the results depend on the processing

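Counts are pseudogenes past the threshold and medians are over all of them. In naive mice at 16 against 4 weeks the count of 68 was 33 after quantile normalization (median -0.1309), 32 after cyclic loess (-0.1461) and 31 to 58 without 1 array. Under quantile normalization Rpl21-ps6 turned positive there (adjusted p = 0.8881). In sham against naive mice at 4 weeks the count of 9 was 1 with no filter (also over all genes of the pattern), 14 with a mean above 6, 2 after quantile normalization (-0.1739), 3 after cyclic loess (-0.1721), 3 with arrays centred, 0 with only the arrays compared and 0 to 2 without 1 array. In DMM against naive mice at 8 weeks the count of 2 was 0 with no filter (also over all genes of the pattern), 0 after quantile normalization, 1 after cyclic loess, 0 with only the arrays compared and 0 to 15 without 1 array (-0.2724 to -0.1662). In naive mice at 8 against 4 weeks the count of 4 was 2 with no filter (also over all genes of the pattern), 2 after quantile normalization (-0.00268), 0 after cyclic loess (-0.003236), 2 with arrays centred, 0 with only the arrays compared and 0 to 1 without 1 array (-0.1168 to 0.006912). DMM mice gave 1 at 8 against 4 weeks with a mean above 6 and 1 at 16 against 4 weeks after quantile normalization. Sham against naive mice at 16 weeks had medians of 0.1267 after quantile normalization and 0.145 after cyclic loess, with 0 to 1 calls without 1 array, and DMM against naive mice at 16 weeks had 0 to 3. For the DMM effect, its change from 4 to 16 weeks had medians of 0.1454 and 0.1458 under the same scalings, and its change from 4 to 8 weeks had -0.1739 to -0.0529 without 1 array. The cause of these differences was not tested, beyond fewer arrays or more genes in the fits concerned. Medians stayed within 1 SD between arrays (0.0623) in 278 of 291 settings.

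With the replicate number as a block, 0 pseudogenes passed in DMM against naive mice at 8 weeks, 2 in sham against naive mice at 4 weeks, 3 in naive mice at 8 against 4 weeks and 65 at 16 against 4 weeks. The arrays share only a number, so this is no paired result. The filter, the no-overlap counts and groups of 3 arrays limit what can be seen, and the spread of the 1 sham array at 8 weeks was taken from the remaining groups. The added alternatives (platform symbols only, 1 gene per identical profile, all genes of the pattern) were chosen after seeing the data.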
